A study of Mus musculus with 6 samples.

Results

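Krueppel-like factors are transcription factors with a C-terminal zinc finger domain that binds CACCC and GC-rich boxes. The 10 genes described here are Klf2, Klf3, Klf4, Klf5, Klf6, Klf7, Klf9, Klf10, Klf13 and Klf15, chosen by symbol from the 26214 features of the count tables. Each has 1 row in every table, and all 10 passed the filter on low counts. The samples were colon tumours of mice given azoxymethane, a carcinogen, and dextran sulfate sodium, which injures the colon lining. The knockout group held 3 samples from Trim21 -/- mice and the wild-type group 3 samples from Trim21 +/+ mice, both given the same agents. The labels call the samples biological replicates and give neither age, sex, strain nor the design of the Trim21 allele. They do not say whether each sample came from its own mouse, so a p-value here reflects only how much these samples vary. Values of single libraries are listed in the order of replicates 1 to 3 of a group, and SE stands for standard error.

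In the colon, Klf4 is found mainly in the upper crypt and surface epithelium, where it promotes cell cycle exit and the maturation of goblet cells. Klf5 is found mainly in the dividing cells of the lower crypt and promotes proliferation. The pair is therefore often set against each other, and the comparison asks whether loss of Trim21, a ubiquitin ligase and cytosolic antibody receptor, goes with a different balance of these factors in the tumour.

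Libraries held 17937821 to 19987295 counts in the knockout and 27085599 to 29742757 in the wild type, so depth differed between the groups. Trim21, the check of the labels, measured 12.1, 18.9 and 12.8 CPM (counts per 1000000 counts of the scaled library) in the knockout and 29.8, 20.3 and 19.5 CPM in the wild type. It was lower in each knockout library without being absent, and counts per gene do not show whether a deleted segment is missing. The epithelial genes Epcam and Cdh1 averaged 1359.6 and 1574 CPM in the knockout libraries and 1406 and 1602 CPM in those of wild type. Of the 8 epithelial markers listed, 5 had positive and 3 negative log2 fold changes, from −0.26 to 0.68 with a median of 0.18. With edgeR 0 passed at an adjusted p under 0.05. Groups did not overlap for 2 of the 8, both higher, where 9.43% of all genes were higher in this way. The mean log2 CPM of the list was 9.16, 8.93 and 8.92 in the knockout and 8.43, 8.90 and 8.97 in the wild type. Without wild-type replicate 1 its median was 0.03. That library was the lowest for the epithelial, surface colonocyte, goblet cell and smooth muscle lists, and Klf4 and these lists are also given without it.

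Sequence just upstream of the start site is shown for the genes whose groups did not overlap, Klf4 and Klf2, and for 2 genes whose groups overlapped, Klf6 and Klf13. The stretches come from RefSeq (GRCm38.p6, the assembly of mm10), whose table matched 8 of the 10 genes and not Klf5 or Klf10. They run 5′ to 3′ on the gene's strand and stop before the first base of the GENCODE gene model. Klf4 lies at chr4:55532476-55532725 (minus strand), Klf2 at chr8:72318812-72319032 (plus), Klf6 at chr13:5861239-5861481 (plus) and Klf13 at chr7:63938916-63939165 (minus). Capitals mark matches on either strand to the GC box GGGCGG, the E-box CACGTG, the CCAAT box CCAAT and the MEF2 consensus.
Klf4: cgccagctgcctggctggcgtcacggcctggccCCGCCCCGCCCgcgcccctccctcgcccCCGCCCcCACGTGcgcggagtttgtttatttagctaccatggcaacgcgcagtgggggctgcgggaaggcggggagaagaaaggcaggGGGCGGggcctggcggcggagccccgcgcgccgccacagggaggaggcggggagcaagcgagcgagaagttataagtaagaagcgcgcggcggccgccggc
Klf2: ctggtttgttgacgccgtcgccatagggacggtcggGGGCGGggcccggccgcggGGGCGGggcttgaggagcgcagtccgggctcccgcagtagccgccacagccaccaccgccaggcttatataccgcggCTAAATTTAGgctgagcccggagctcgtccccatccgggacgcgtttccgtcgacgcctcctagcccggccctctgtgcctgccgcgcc
Klf6: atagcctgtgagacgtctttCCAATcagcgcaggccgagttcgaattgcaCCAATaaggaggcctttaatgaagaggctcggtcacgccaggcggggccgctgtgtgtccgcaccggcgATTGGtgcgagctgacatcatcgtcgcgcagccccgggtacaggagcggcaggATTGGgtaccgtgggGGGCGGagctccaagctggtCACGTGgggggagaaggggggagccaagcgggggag
Klf13: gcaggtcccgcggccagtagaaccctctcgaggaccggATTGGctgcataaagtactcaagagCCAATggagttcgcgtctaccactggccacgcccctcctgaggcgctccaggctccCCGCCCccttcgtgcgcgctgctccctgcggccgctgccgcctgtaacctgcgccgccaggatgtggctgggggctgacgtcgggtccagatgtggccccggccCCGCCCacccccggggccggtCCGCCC

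Motifs were counted on both strands in the 250 bases before each RefSeq start, for the 8 genes and for all 32851 windows of that length. Unlike the stretches shown, these windows were not cut at the GENCODE gene model. The Klf7 window lay wholly inside that model, and those of Klf2, Klf3 and Klf6 ran into it. The GC box GGGCGG was found in 7 of the 8 Klf windows, Klf9 being the exception, and in 32.7% of all windows. The Klf4 window held 4 GC boxes, the first pair sharing a base, and its E-box CACGTG began 182 bases before the start. E-boxes were also found for Klf6 and Klf15, so in 3 of 8 windows against 6.02% of all. CCAAT was found in 4 of 8, namely Klf6, Klf9, Klf13 and Klf15, and in 33.8% of all, and some of the Klf9 matches overlap each other. The CACCC box CACCC was found in 6 of 8 and in 52.0% of all, and in Klf13 it shares a base with a GC box. Klf2 had the only match to the MEF2 consensus, CTAAATTTAG at 118 bases before the start, against 2.92% of all windows. TATAAA, the cyclic AMP response element TGACGTCA and the CArG box were found in 0 of 8, against 12.4%, 1.55% and 1.47% of all. The 8 windows had a median of 71.4% G and C against 52.4% over all windows, so shares of GC-rich motifs differ with base composition, and a match is a description of letters only.

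Klf4 and Klf2 had higher values in every knockout library than in any wild-type library, and the other 8 genes overlapped between the groups. With edgeR's quasi-likelihood test, 0 of the 10 genes passed at an adjusted p under 0.05, where the background was 0% of 16281 genes. At an unadjusted p under 0.05 there were 2 higher and 0 lower, against 6.63% higher and 4.12% lower among all genes. Groups did not overlap for 2 of the 10, both higher, against 9.43% of all genes higher and 8.47% lower. That share is near the background of 17.9% in either direction. Of the 10 genes 7 had a positive log2 fold change and 3 a negative one, with a median of 0.15, and the median over all tested genes was −0.01. DESeq2 called 1 member, Klf4, against 1.96% of 17119 genes, of which 1.41% were higher and 0.543% lower. Neither form of limma-voom called a member, and the form with sample weights called 0.00614% of genes, all lower. Without wild-type replicate 1, an omission chosen after seeing the data, 4 of the 10 did not overlap, against 25.3% of all genes: Klf2, Klf3 and Klf4 higher and Klf13 lower.

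**Figure D1:**
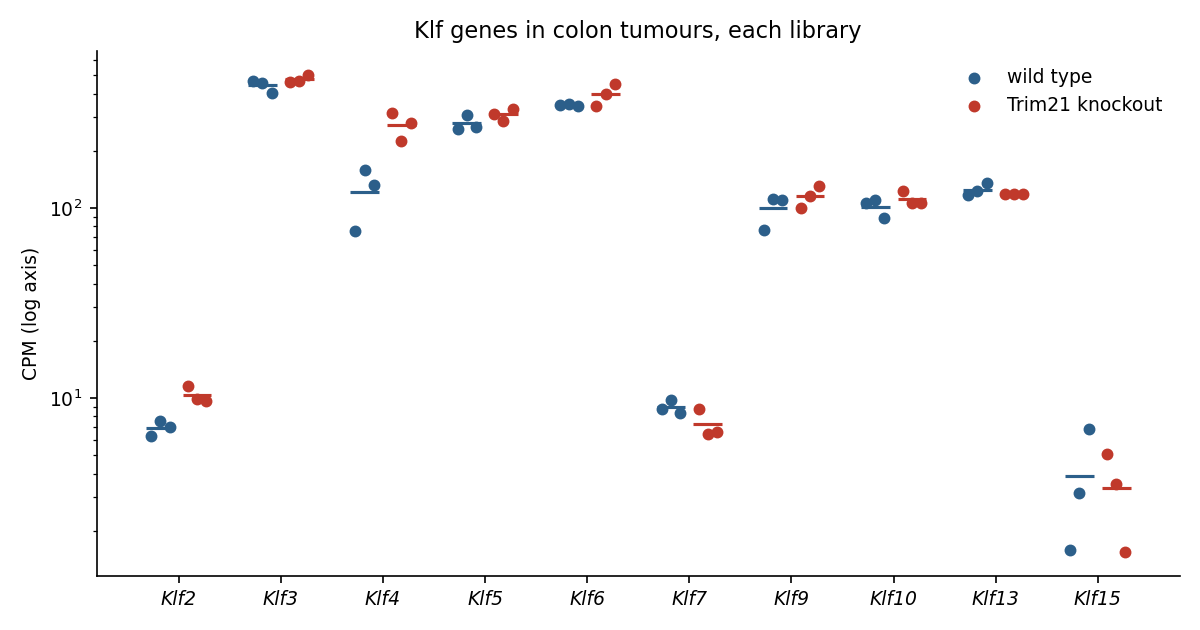
CPM of the 10 Klf genes in each library on a log axis, with wild type in blue, knockout in red and a line at the mean of 3. Red and blue points separate for Klf4 and Klf2 and overlap for the other 8 genes.

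Klf4 (chromosome 4, 55527143 to 55532466, minus strand) showed the largest change among the 10 genes by edgeR. It measured 316, 226 and 281 CPM in the knockout and 75.8, 158 and 133 CPM in the wild type. All 3 knockout libraries lay above all 3 wild-type libraries, and wild-type replicate 1 was the lowest. The means were 274.3 ± 45.4 CPM and 122.1 ± 42.0 CPM (SD, n = 3 each). A log2 fold change of 1.17 (SE 0.26) was found, a 2.25-fold higher level, and the adjusted p of edgeR was 0.334. With DESeq2 the log2 fold change was also 1.17 and the adjusted p 0.00186. Over the 15 alternatives the adjusted p of Klf4 ran from 0.00186 to 0.723 and its log2 fold change from 0.91 to 1.40, always positive. Without wild-type replicate 1 it was 0.92. By fold change Klf4 stood at the 97.4th percentile of all tested genes. In bulk tumour RNA, more cells that express Klf4 and more Klf4 RNA per cell cannot be told apart.

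Klf5 (chromosome 14, 99298691 to 99315036, plus strand) was at a similar level in both groups. It measured 313.5, 289 and 331 CPM in the knockout and 259.6, 309 and 268 CPM in the wild type. Wild-type replicate 2 lay above knockout replicate 2, so the groups overlapped. A log2 fold change of 0.16 (SE 0.10) was found, at an edgeR adjusted p of 0.585, and across the alternatives it stayed between 0.07 and 0.24. Klf5 varied by 9.45% across the 6 libraries (SD over mean), against 46.5% for Klf4.

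The ratio of Klf4 to Klf5 therefore differed between the groups mainly through Klf4. Klf4 CPM over Klf5 CPM was 1.01, 0.782 and 0.848 in the knockout and 0.292, 0.511 and 0.495 in the wild type. Every knockout ratio exceeded every wild-type ratio. On the log2 scale Klf4 minus Klf5 averaged −0.19 ± 0.19 in the knockout and −1.25 ± 0.45 in the wild type (SD, n = 3 each). The difference between groups was 1.06, a 2.08-fold higher ratio. The two-sided exact permutation test gave p = 0.1, the smallest value that 3 against 3 samples allow. Leaving out single libraries put the difference between 0.80, without wild-type replicate 1, and 1.20, without wild-type replicate 2. Length and library scaling cancel in this difference.

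**Figure D2:**
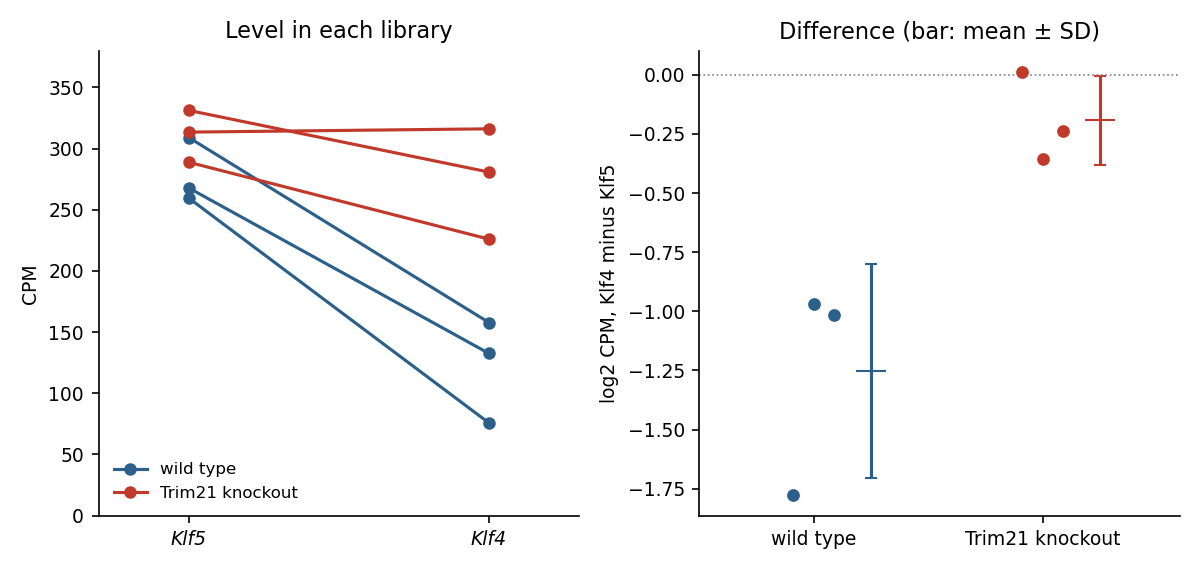
The left panel joins Klf5 and Klf4 CPM of each library, and the right panel gives log2 CPM of Klf4 minus Klf5 with mean ± SD. Lines fall steeply toward Klf4 in the 3 wild-type libraries, and the difference is −1.25 on average there against −0.19 in the knockout.

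Set against each of the other 9 genes in the same way, Klf4 was relatively higher in all knockout libraries in all 9 pairs. The group differences ran from 0.66 for Klf4 minus Klf2 to 1.53 for Klf4 minus Klf7. The exact permutation p was 0.1 in each of the 9 pairs, and 0.1 after Benjamini-Hochberg adjustment over them. All 9 pairs share Klf4, so they are not independent of each other.

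Klf2 (chromosome 8, 72319033 to 72321656, plus strand), a factor of quiescent endothelium and resting lymphocytes, was a low-level gene. It was read 232, 180 and 187 times in the knockout libraries and 188, 224 and 190 times in the deeper wild-type libraries. This corresponds to 11.5, 9.88 and 9.67 CPM against 6.31, 7.58 and 7.04 CPM, with no overlap. A log2 fold change of 0.57 (SE 0.17) was found, a 1.48-fold higher level (edgeR adjusted p = 0.373). Knockout replicate 1 had the highest Klf2.

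The 8 endothelial markers, among them Pecam1 and Cdh5, were summed to 234.1 to 325.3 CPM in the knockout and 212.1 to 261.4 CPM in the wild type. By mean log2 CPM of that list knockout replicate 1, at 4.57, lay below the other knockout libraries at 4.94 and 5.14, unlike Klf2, and the wild-type libraries lay at 4.50 to 4.73. Of the 8 markers 7 had positive fold changes, with Vwf at 0.42 and Plvap at 0.54 and neither passing. For 3 of the 8 the groups did not overlap, all higher, against 9.43% of all genes higher. The 5 endothelial genes listed as Klf2 targets hold genes that Klf2 is known to raise and genes it is known to lower, so their signs are not counted together, and 0 passed. Of those it raises, the thrombin receptor Thbd had a log2 fold change of 0.53, the sphingosine phosphate receptor S1pr1 0.12 and the nitric oxide synthase Nos3 −0.19. Of those it lowers, Vcam1, an adhesion receptor for leukocytes, had 0.73 and the endothelin gene Edn1 0.33. Of the 5 lymphocyte genes listed as Klf2 targets, S1pr1 again among them, 4 were positive and all overlapped. The median was 0.12, the value of S1pr1 itself. That median was −0.09 without knockout replicate 2, −0.03 without knockout replicate 3 and 0.40 without knockout replicate 1. T cell markers were summed to 16.7 to 30.6 CPM and 12.6 to 23.8 CPM, and their part and that of the endothelial genes in the Klf2 values was not tested.

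Klf6 (chromosome 13, 5861482 to 5870394, plus strand), a broadly expressed factor induced by injury, was among the most abundant of the 10 genes. It measured 345, 398 and 449 CPM in the knockout and 349, 354 and 345 CPM in the wild type. The wild-type libraries lay within a narrow band, and knockout replicate 1 lay at its lower edge while the others lay above it. A log2 fold change of 0.19 (SE 0.11) was found, at an edgeR adjusted p of 0.556.

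Klf10 (chromosome 15, 38291463 to 38300706, minus strand) is an early response gene of TGF-beta signalling. It measured 123, 106 and 107 CPM against 106, 111 and 88.9 CPM, and the groups overlapped. It had a log2 fold change of 0.14 (SE 0.11), at an edgeR adjusted p of 0.680. In the list of TGF-beta receptors, Smads and early targets, 3 of 9 genes had positive fold changes, the median was −0.06, and 0 passed. Smad3, a signal transducer of that pathway, had −0.20 and the inhibitor Smad7 had −0.28.

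Klf3 (chromosome 5, 64803388 to 64832901, plus strand) acts as a repressor through the CtBP corepressors. It measured 461, 466 and 504 CPM in the knockout and 469, 453 and 404 CPM in the wild type. The groups overlapped through wild-type replicate 1, and a log2 fold change of 0.11 (SE 0.09) was found, at an edgeR adjusted p of 0.683. Of the 7 corepressor genes listed, 3 had positive and 4 negative fold changes, with a median of −0.12, and 0 passed. For 2 of the 7, Hdac3 and Sin3a, the groups did not overlap, both lower, against 8.47% of all genes lower. Ctbp1 had 0.12 and Ctbp2 0.00288. The histone deacetylase gene Hdac3 measured 72.2 ± 2.11 CPM against 86.6 ± 2.77 CPM (SD, n = 3), without overlap (log2 fold change −0.26, edgeR adjusted p = 0.379).

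Klf13 (chromosome 7, 63886351 to 63938915, minus strand), a repressor that interacts with Sin3a, was the least variable of the 10. It measured 118, 119 and 119 CPM in the knockout and 117, 123 and 135 CPM in the wild type. The coefficient of variation over all libraries was 5.56%, and a log2 fold change of −0.07 (SE 0.08) was found, at an edgeR adjusted p of 0.763. Klf13 overlaps the protein-coding gene E030018B13Rik on the opposite strand, and Klf3 and Klf7 also overlap opposite-strand transcripts. The strand setting of the counting is unknown here, so reads of these pairs may not be told apart.

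Klf9 (chromosome 19, 23141226 to 23168134, plus strand) and Klf15 (chromosome 6, 90462576 to 90475238, plus strand) are induced by glucocorticoids in many tissues. Klf9 measured 100.4, 116 and 131 CPM in the knockout and 77.0, 112 and 109.8 CPM in the wild type. The low wild-type replicate 1 set much of the group difference. A log2 fold change of 0.22 (SE 0.17) was found, at an edgeR adjusted p of 0.654, and it was 0.06 without that library. Klf15 was read 102, 64 and 30 times in the knockout and 47, 94 and 185 times in the wild type. That corresponds to 5.06, 3.51 and 1.55 CPM against 1.58, 3.18 and 6.86 CPM, so a high and a low library stood in each group. It had a log2 fold change of −0.20 (SE 0.61), at an edgeR adjusted p of 0.921, and the sign turned to 0.15 without knockout replicate 3 and to 0.50 without wild-type replicate 3.

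Of the 8 glucocorticoid-linked genes listed beside them, 7 had positive fold changes with a median of 0.51, and 0 passed. For 4 of the 8 the groups did not overlap, all higher, against 9.43% of all genes higher. The kinase gene Sgk1 measured 123.1 ± 24.6 CPM against 50.05 ± 10.9 CPM and Hsd11b2, which inactivates glucocorticoids, 153.2 ± 40.9 CPM against 33.5 ± 23.5 CPM (SD, n = 3). Both are also colonocyte genes of salt transport and its control. The receptor gene Nr3c1 had a log2 fold change of 0.38 and overlapped between the groups.

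Klf7 (chromosome 1, 64029447 to 64122282, minus strand), known from neurons and fat cell precursors, was a low-level gene. It was read 118 to 177 times in the knockout and 226 to 289 times in the wild type. The levels were 8.78, 6.48 and 6.62 CPM against 8.79, 9.78 and 8.38 CPM. Knockout replicate 1 lay within the wild-type range and the other knockout libraries below it (log2 fold change −0.30, SE 0.19, edgeR adjusted p = 0.592). The summed enteric neuron and glia markers were at 11.9 to 19.5 CPM in the knockout and 8.25 to 16.2 CPM in the wild type. Of the 7 tested, 6 had positive and 1 a negative fold change, with a median of 0.68, and 0 passed. Groups did not overlap for 1 of the 7, higher, against 9.43% of all genes. The mean log2 CPM of this low-level list was 1.25, 0.52 and 0.83 against −0.89, 0.16 and 0.36, without overlap. Its part in the Klf7 values was not tested.

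**Figure D3:**
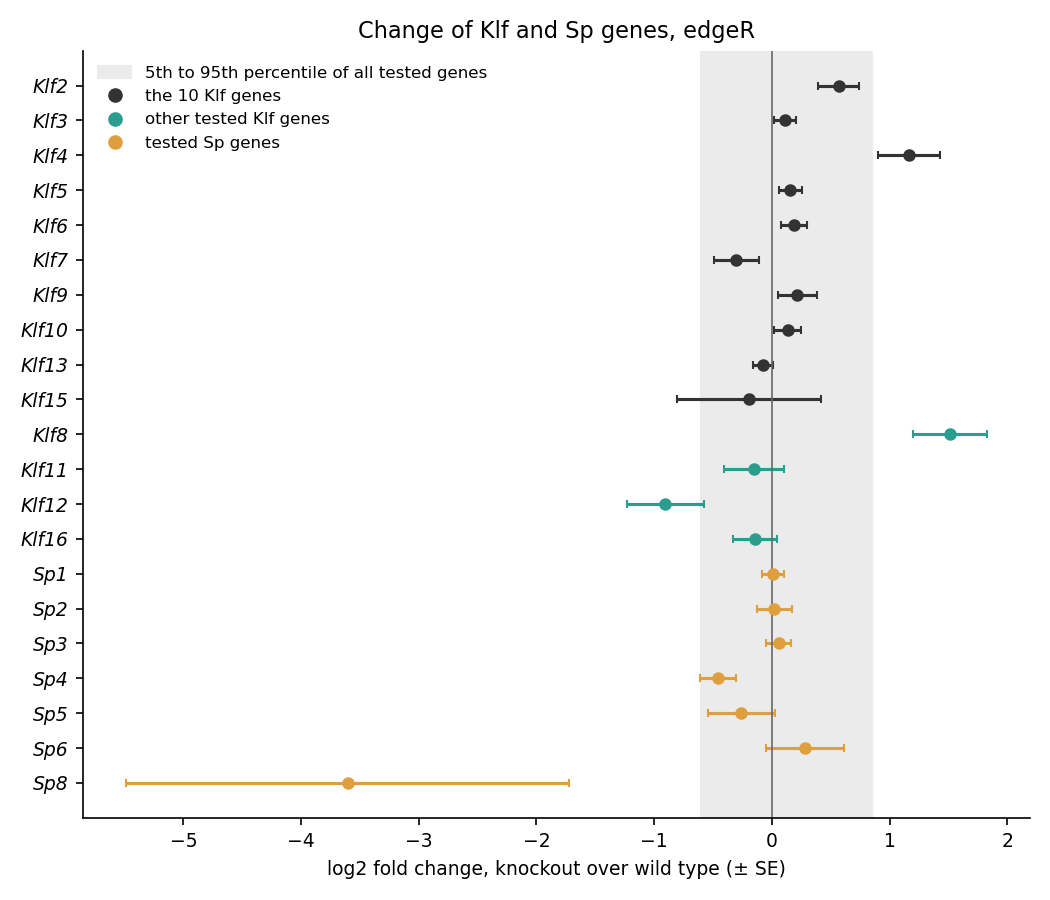
Log2 fold change of knockout over wild type with its standard error for the 10 Klf genes, the 4 other tested Klf genes and 7 tested Sp genes. The grey band holds the 5th to 95th percentile of all tested genes (−0.60 to 0.85), and Klf4 at 1.17 is the only one of the 10 beyond it.

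Other members of the family were counted as well. Of 7 other Klf genes, Klf1, Klf14 and Klf17 had at most 11 reads in a library and were not tested. Among the 4 tested, 1 had a positive fold change, the median was −0.15, and 0 passed. For 1 of the 4, Klf8, the groups did not overlap, against 9.43% of all genes higher. Klf8, a repressor linked to cell cycle entry, measured 2.78, 2.53 and 3.00 CPM in the knockout and 0.805, 0.982 and 1.11 CPM in the wild type. These groups did not overlap, on 24 to 58 reads per library, with a log2 fold change of 1.51 (SE 0.31, edgeR adjusted p = 0.322). Klf12, a repressor of AP-2 alpha, had −0.90 with overlapping groups.

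The related Sp factors bind the same GC-rich boxes. Of 9 Sp genes 7 were tested, with a median log2 fold change of 0.01 and 0 past the test. For 1 of the 7, Sp4, the groups did not overlap, against 8.47% of all genes lower. The broadly expressed Sp1 measured 230.1 ± 20.2 CPM against 228.7 ± 13.5 CPM (SD, n = 3). Sp4 was lower in every knockout library, at 25.1 ± 3.15 CPM against 34.5 ± 4.98 CPM (log2 fold change −0.46, edgeR adjusted p = 0.397). The −3.61 of Sp8 came from wild-type replicate 3, with 285 reads against at most 12 in any other library.

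Levels were compared between genes per kilobase of exon, from GENCODE M21, and the order at the top depended on the length used. With all annotated exons of a gene, Klf6 and Klf4 led in the knockout at 90.5 ± 11.9 and 90.0 ± 14.9 CPM per kilobase, followed by Klf5 at 59.8 ± 4.09 and Klf3 at 42.4 ± 2.09. In the wild type Klf6 led at 79.5 ± 1.04, followed by Klf5 at 53.6 ± 5.10, Klf4 at 40.0 ± 13.8 and Klf3 at 39.3 ± 2.98 (SD, n = 3 throughout). The ranges of Klf6 and Klf4 overlapped in the knockout. Klf4 lay above Klf5 in each knockout library, and its range overlapped those of Klf5 and Klf3 in the wild type. Klf10, Klf9, Klf13, Klf2, Klf15 and Klf7 followed in this order in both groups. Within that order neither Klf10 and Klf9 nor Klf15 and Klf7 separated beyond their ranges, nor did Klf9 and Klf13 in the wild type.

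With the longest transcript as the length, Klf3, Klf4, Klf5 and Klf6 lay at 90.6 to 94.1 CPM per kilobase in the knockout and could not be ordered. In the wild type Klf3, Klf5 and Klf6 lay at 82.6 to 84.6 and Klf4 apart from them at 40.3 ± 13.9. The annotated exons of Klf3 span 11243 bases and its longest transcript 5221, and those of Klf5 5201 and 3352, while Klf4 has 3049 and 3029. As a share of the summed level of the 10 genes, Klf4 made up 28.9%, 22.2% and 24.4% in the knockout and 9.65%, 17.0% and 15.6% in the wild type with all exons. With the longest transcript the shares were 19.7% ± 2.78 and 10.7% ± 3.12 on average. These shares did not overlap between the groups under either length, and Klf4 rests on 2260 to 6375 reads per library.

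**Figure D4:**
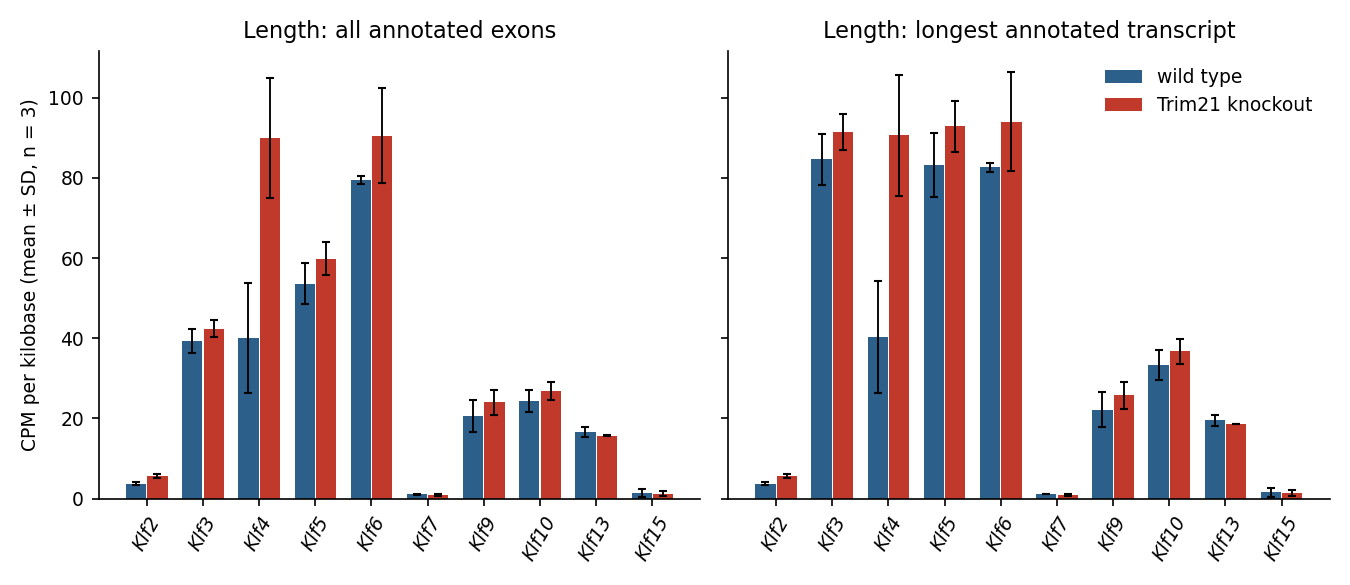
Mean level of the 10 genes in CPM per kilobase, with SD over 3 libraries, using all annotated exons (left) or the longest transcript (right). The Klf4 bars differ between groups in both panels, at 90.0 against 40.0 on the left, while the rank of Klf3 and Klf5 beside it changes with the length.

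Genes of the programmes that Klf4 and Klf5 are known for were described beside them. Among 12 surface colonocyte genes, 11 had positive fold changes with a median of 0.71, and 0 passed. Groups did not overlap for 6 of the 12, all higher, where 9.43% of all genes were higher in this way. Without wild-type replicate 1 the median was 0.55 and 6 did not overlap, against 13.2% of all genes higher, and without knockout replicate 3 the median was 0.45. With the same CPM values, leaving out a library cannot lower a count of genes without overlap. An unchanged count, here and in the lists below, is therefore no check of it. The water channel gene Aqp8 and the alkaline phosphatase gene Alpi had 3.50 and 4.82, Alpi on at most 88 reads per library. Krt20, a keratin of differentiated colon epithelium, had −0.05, at 374.4 ± 29.9 against 388.1 ± 51.3 CPM (SD, n = 3). Among 12 goblet cell genes, 11 were positive with a median of 1.06, 0 passed, and 6 did not overlap, all higher, against the same 9.43%. This median depended on single wild-type libraries. It was 0.68 without replicate 1, with 6 higher and 1 lower without overlap, against 13.2% and 12.2% of all genes. It was 1.72 without replicate 2, with 11 higher, against 15.7% of all genes. Clca1 and Zg16, secreted mucus proteins, had 1.57 and 2.19. Among 12 proliferation genes, 10 were negative with a median of −0.18, and all 12 overlapped between the groups. Without knockout replicate 1 the median was −0.28 and 7 of the 12 did not overlap, all lower, where 17.1% of all genes were lower in this way. Leaving out knockout replicate 3 gave a median of −0.08, and leaving out wild-type replicate 3 gave −0.07. Ccnd1, the cyclin of early cell cycle entry, had −0.23 and Myc −0.23. Of the 4 cyclin-dependent kinase inhibitor genes, Cdkn1a, a known Klf4 target, had 0.01 and Cdkn1b 0.24.

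Smooth muscle markers were ordered across the libraries as Klf4 was. All 10 had positive fold changes with a median of 1.01, and they were summed to 803.5 to 1344 CPM in the knockout and 234.8 to 749.2 CPM in the wild type. Their mean log2 CPM was 6.25, 5.68 and 5.85 in the knockout and 3.72, 5.53 and 4.98 in the wild type. None passed, and 5 of the 10 did not overlap, all higher, against 9.43% of all genes. Without wild-type replicate 1, 9 of the 10 were positive with a median of 0.78, and 5 did not overlap, against 13.2%. Without wild-type replicate 2 the median was 1.33 and 8 did not overlap, against 15.7%. For the surface colonocyte list the values were 6.55, 6.31 and 6.70 against 4.42, 5.32 and 5.49, and for the goblet list 8.03, 7.23 and 7.60 against 5.41, 7.38 and 6.52. Wild-type replicate 1 was lowest in each of them and in Klf4. Of 8 macrophage markers, 7 had positive fold changes with a median of 0.34 and 6 did not overlap, all higher, against 9.43% of all genes. They were also 6 without wild-type replicate 1, against 13.2%, and the omission could not have lowered that count. Of 8 fibroblast markers, 7 were positive with a median of 0.39 and 1 did not overlap, a share near the background of 9.43%. It was 5 without wild-type replicate 1, against 13.2% of all genes higher, and 6 without knockout replicate 1, against 16.2%. All 6 B cell markers were positive with a median of 0.56 and overlapped, and the median was 0.16 without wild-type replicate 1. None of these markers passed, and the part of tissue makeup in the Klf4 values was not tested.

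**Figure D5:**
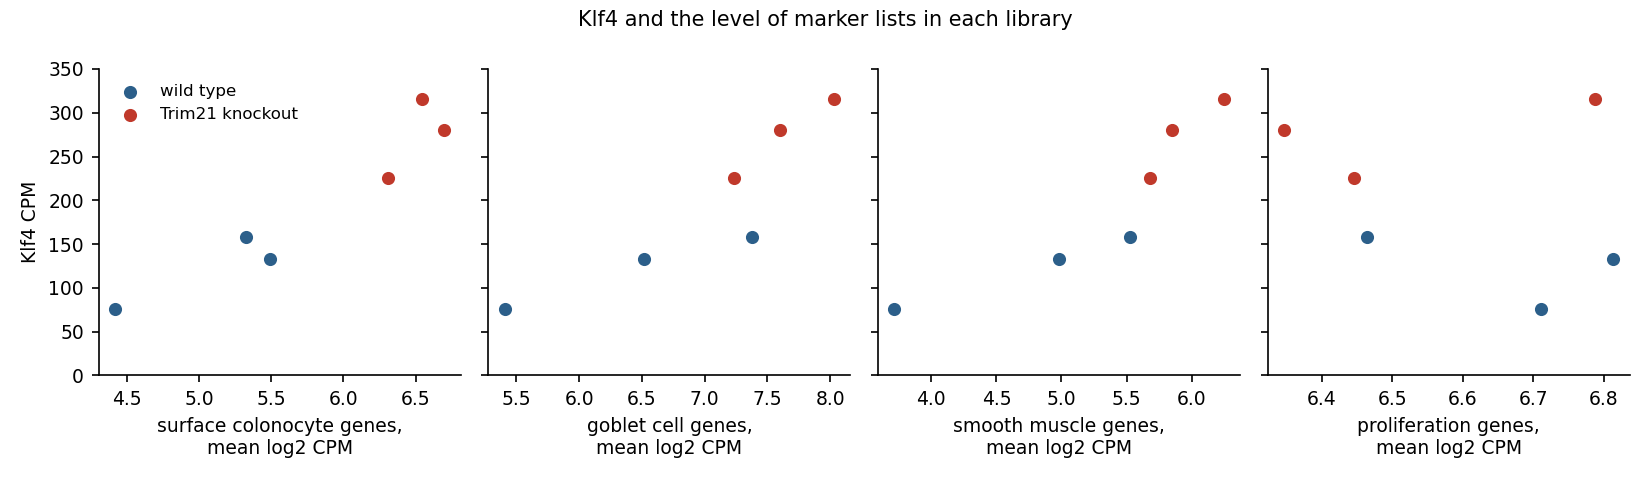
Klf4 CPM of each library against the mean log2 CPM of 4 marker lists. The smooth muscle list has the same order of libraries as Klf4, wild-type replicate 1 is lowest in the surface colonocyte, goblet and smooth muscle lists, and the groups overlap in the goblet and proliferation lists.

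Among immediate early genes, the class in which Klf4 and Klf6 are often counted, 5 of 8 had positive fold changes with a median of 0.14. Fos measured 149, 120.0 and 139.6 CPM in the knockout and 70.4, 104 and 97.0 CPM in the wild type, without overlap (log2 fold change 0.59, edgeR adjusted p = 0.345). Egr1 likewise did not overlap, with 0.51, while Jun had −0.21 and Atf3 −0.15. Groups did not overlap for 2 of the 8, both higher, against 9.43% of all genes higher, and 0 passed. Of 5 genes of ubiquitin ligases known to act on Klf5 or Klf4, 2 had positive fold changes, the median was −0.01, all overlapped and 0 passed. Of those that act on Klf5, Wwp1 had a log2 fold change of −0.01, Fbxw7 0.07 and Smurf2 −0.14. Of those that act on Klf4, Vhl had −0.14 and Fbxo32 0.25, at 92.3 ± 26.3 against 77.8 ± 8.19 CPM (SD, n = 3).

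The genes whose pattern over the 6 libraries was most like that of Klf4, by Pearson correlation of log2 CPM among 10569 candidates, were Pla2g10, Entpd5, Cracr2a, Fos and Prss32. Their correlations lay between 0.996 and 0.998, and between 0.988 and 0.996 after centring within each group. Pla2g10, a secreted phospholipase gene, measured 35.9, 29.7 and 34.2 CPM against 13.1, 23.3 and 20.2 CPM. For Klf5 they were Ampd3, Tnfaip8, Slc2a13, Sepsecs and Copb1, at 0.985 to 0.993. The highest of so many correlations over 6 points is high by selection, and these values are descriptions. Between members, Klf4 correlated with Klf2 at 0.958 and with Klf5 at 0.845 over the same libraries, and Klf3 with Klf13 at −0.88. All such values share library depth and scaling.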

How the data were processed

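RNA sequencing of ribosome-depleted total RNA was analysed from the read count that the authors deposited per gene symbol, with 26214 features in each of 6 tables. The build mm10 and the tools TopHat2, edgeR and limma are named, per the submitters' processing notes, without role or version. Which counter and annotation were used, and whether strand was, is not given in the sources used here.

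The main test was edgeR's quasi-likelihood test (edgeR 4.0.16, R 4.3.3), fitted to all 6 libraries by group alone, after TMM scaling (factors 0.977 to 1.02) and filterByExpr, which kept 16281 genes. P-values are two-sided and Benjamini-Hochberg adjusted over those genes, with 0.05 as the threshold. The SE is the log2 fold change over the square root of F. CPM values use the scaled library size, and log2 CPM a prior count of 2. Klf4 minus Klf5 was tested by exact permutation of the 6 samples. The edgeR, DESeq2 and unweighted limma-voom fits were tested on simulated counts. Alternatives were DESeq2 1.42.0, limma-voom (limma 3.58.1), other scalings and filters, a replicate block and leaving out each library. Replicates were not copies of each other (chi-square per degree of freedom 20.9 to 103.1 within groups), so all 6 were kept.

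All 10 Klf genes are described. Of each comparison list, up to 2 genes with the smallest unadjusted p are named by rule, with others named for their role after their values were seen. The members and lists were chosen with earlier results of these data known.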

Additional observations from a re-analysis of the deposited data

How the results depend on the processing

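With edgeR 0 genes passed and 0 of the 10 Klf genes did. DESeq2 called 335 genes and 1 Klf gene, Klf4, and limma-voom with sample weights called 1 gene and no Klf gene. Leaving out single libraries gave 0 to 1 genes, the 1 without wild-type replicate 3, and 0 Klf genes. The number of Klf genes whose groups do not overlap, with omissions chosen after seeing the data, ran from 2 to 5. It was 5 without knockout replicate 1, where 33.3% of all genes did not overlap, 4 without wild-type replicate 1 (25.3%) and 4 without wild-type replicate 2 (30%). It was 3 without knockout replicate 2 (25.8%) or wild-type replicate 3 (30%) and 2 without knockout replicate 3 (25.9%). Klf4 and Klf2 were among them each time by construction, since leaving out a library cannot make separate groups overlap. For the same reason such a count can only stay or rise. Klf15 ran from −0.61 to 0.50 over the omissions and turned sign in a pair of them, 0.15 when knockout replicate 3 and 0.50 when wild-type replicate 3 was left out. The other 9 genes kept their direction in all 15 alternatives. The cause was not tested. Klf4 minus Klf5 ran from 0.80 to 1.20 over the omissions. List medians were also taken over the omissions, chosen after seeing the data, and 0 genes of any list passed. That of the TGF-beta list ran from −0.16 to 0.03, of the corepressors from −0.15 to −0.06, of the other Klf genes from −0.25 to −0.05, of the Sp genes from −0.06 to 0.07, of the ubiquitin ligase genes from −0.06 to 0.03, of the immediate early genes from 0.03 to 0.20 and of the glucocorticoid-linked genes from 0.36 to 0.71.

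Deviations of same-numbered samples from their group means correlated at −0.15, −0.18 and −0.07, so the numbers were not taken to pair the samples. With the replicate number as a block 0 genes passed, Klf4 had a log2 fold change of 1.22 (adjusted p = 0.588 by edgeR) and Klf4 minus Klf5 was 1.06 (exact sign-flip p = 0.25, the smallest that 3 pairs allow). Low depth limits Klf15, Klf2 and Klf7 in particular, with 30 to 289 reads per library.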
